A study of Mus musculus with 9 samples.

Results

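Fibrinogen chains (Fga, Fgb and Fgg), pentraxins (Crp and Apcs) and inter-alpha-trypsin inhibitor heavy chains (Itih3 and Itih4) are plasma proteins that the liver makes and secretes. These 7 genes were taken by symbol from a table of 42188 genes, and each symbol matched 1 row. All 7 passed the filter on low counts, as did 14603 genes in all. Liver RNA was sequenced from mice whose labels give a wild-type genotype, the strain C57BL/6J (C57BL/6 in the strain tag) and male sex, at 8 weeks and 20 to 25 g. There were 3 libraries in each of 3 groups, and in 6 of the 9 transcripts tied to sex and strain went against these labels, as given with the depths. Control mice received phosphate-buffered saline in the tail vein. ConA mice were given concanavalin A intravenously at 20 mg/kg, and their livers were taken 12 hours later. This lectin, from jack beans, is used in mice to provoke a hepatitis that depends on T cells. MSA_ConA mice received 250 mg/kg of MSA in the abdomen 6 hours before the same dose of ConA. The series title names mesaconate, an organic acid, as the protective agent under study. The design has no group given MSA without ConA, so an effect of MSA could be read only on top of ConA.

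Plasma proteins whose synthesis by hepatocytes changes during inflammation are called acute-phase proteins. Interleukin-6 and related cytokines act through the gp130 receptor and the transcription factor STAT3, and interleukin-1 adds to this through C/EBP and NF-kappaB factors. Fibrinogen is a classic target of the interleukin-6 branch. In mice Apcs, which encodes serum amyloid P component, is the more inducible pentraxin in many settings, while Crp, which encodes C-reactive protein, is the prominent human acute-phase pentraxin.

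The fibrinogen genes form 1 cluster on chromosome 3 of the C57BL/6NJ strain assembly, whose gene models the deposited tables use. Fgg (MGP_C57BL6NJ_G0027750) lies at 3:85948176-85956659 on the plus strand, Fga (MGP_C57BL6NJ_G0027751) at 3:85967660-85975213 on the plus strand, and Fgb (MGP_C57BL6NJ_G0027752) at 3:85981722-85991444 on the minus strand. Apcs (MGP_C57BL6NJ_G0017199) lies at 1:184709144-184710224 on the minus strand and Crp (MGP_C57BL6NJ_G0017198) at 1:184503508-184648850 on the plus strand. The Crp model spans 145.343 kb, far more than its 3314 bases of counted exons, while the Apcs model spans 1.081 kb. Whether reads of other transcripts within that span were counted for Crp cannot be told from the tables, which touches every Crp value that follows. Itih4 (MGP_C57BL6NJ_G0021494) lies at 14:24999052-25017913 on the plus strand and Itih3 (MGP_C57BL6NJ_G0021495) at 14:25026303-25042082 on the minus strand, so these neighbours are also transcribed in opposite directions. All 7 are annotated as protein coding.

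The 250 bases before the start of transcription are shown for the fibrinogen chains, which share a cluster, and for the pentraxins, which went the other way between the libraries labelled MSA_ConA 1 and ConA 1. The sequences are RefSeq's for GRCm38.p6, in the direction of transcription, and all 7 members matched an entry by symbol. They lie at chr3:83025903-83026152 on the plus strand for Fga, chr3:83049864-83050113 on the minus strand for Fgb, chr3:83007474-83007723 on the plus strand for Fgg, chr1:172697806-172698055 on the plus strand for Crp and chr1:172895055-172895304 on the minus strand for Apcs. Capitals mark every match on either strand to 1 of 3 motifs: CTGGGA, the core of the type II interleukin-6 response element; TTCNNNGAA, the palindrome bound by STAT factors; and TTGCNNAA, a core of C/EBP sites.
Fga: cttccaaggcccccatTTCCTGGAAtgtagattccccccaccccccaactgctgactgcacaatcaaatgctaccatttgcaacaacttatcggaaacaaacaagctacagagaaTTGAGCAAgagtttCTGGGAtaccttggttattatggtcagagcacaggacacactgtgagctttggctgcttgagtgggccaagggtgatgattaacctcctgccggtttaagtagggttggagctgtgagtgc
Fgb: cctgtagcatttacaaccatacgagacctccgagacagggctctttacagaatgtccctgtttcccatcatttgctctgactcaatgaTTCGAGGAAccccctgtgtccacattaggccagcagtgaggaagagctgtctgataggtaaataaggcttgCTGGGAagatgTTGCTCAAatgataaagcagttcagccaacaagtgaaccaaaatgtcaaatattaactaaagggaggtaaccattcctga
Fgg: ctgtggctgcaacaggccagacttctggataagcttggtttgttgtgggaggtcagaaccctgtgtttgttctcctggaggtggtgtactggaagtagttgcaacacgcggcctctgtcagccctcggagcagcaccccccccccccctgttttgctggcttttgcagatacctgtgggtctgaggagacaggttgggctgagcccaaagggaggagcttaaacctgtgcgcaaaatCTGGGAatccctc
Crp: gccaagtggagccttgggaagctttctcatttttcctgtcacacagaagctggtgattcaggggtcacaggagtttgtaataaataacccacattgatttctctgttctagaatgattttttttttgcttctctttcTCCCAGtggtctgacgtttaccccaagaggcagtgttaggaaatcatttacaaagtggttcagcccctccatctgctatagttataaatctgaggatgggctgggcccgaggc
Apcs: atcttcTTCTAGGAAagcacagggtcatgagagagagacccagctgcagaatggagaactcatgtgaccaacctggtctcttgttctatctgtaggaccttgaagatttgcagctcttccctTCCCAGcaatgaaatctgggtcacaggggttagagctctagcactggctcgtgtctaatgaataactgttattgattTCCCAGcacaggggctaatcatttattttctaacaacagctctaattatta

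CTGGGA was found before 6 of the 7 genes, and before 27.0% of the 32851 mouse promoters of the same length. The exception was Itih3, before which none of the 3 motifs was found. The match lay 121 bases before the start of Fga, 91 before Fgb, 13 before Fgg, 113 before Crp and 80 before Itih4, and Apcs had 2 matches, at 128 and 51 bases. Read in the direction of transcription, the match was on the printed strand for the fibrinogen chains and Itih4, and on the opposite strand for Crp and Apcs, where the printed letters are TCCCAG. TTCNNNGAA was found before Fga, Fgb, Apcs and Itih4, 4 of the 7, against 7.02% of all promoters. TTGCNNAA was found before Fga and Fgb alone among the members, against 9.56% of all promoters. Fga and Fgb thus held all 3 motifs in this window and Fgg held 1. The start sites here are RefSeq's, and whether they are those of the counted C57BL/6NJ gene models was not tested. A match is a description of the letters and was not tested for binding.

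The 9 libraries held 13294600 to 17276391 counts each. Values are given as CPM (counts divided by the library total and scaled to a common size), adjusted between libraries by TMM factors, which ranged from 0.571 to 1.26. The 3 libraries numbered 1, 1 in each group, stood apart from the 6 numbered 2 and 3. Xist, transcribed in female cells, did not pass 0.485 CPM in number 1, while the others, also labelled male, held 666 to 1130.4 CPM. Mup21, a urinary protein gene, was at 251 to 668 CPM in number 1 and 0.416 to 1.44 CPM elsewhere, and Nnt, which carries a deletion in C57BL/6J, at 29.8 to 34.6 CPM against 168 to 266 CPM, so that its level in numbers 2 and 3 also goes against their label. Each library is therefore called by its label, and every comparison is given with all 9 libraries and within the number classes. All p-values refer to the spread among these libraries alone. The 7 hepatocyte markers summed to 92003 to 146256 CPM in number 1, around the 103041 to 128147 CPM of the other libraries. The labelled tissue was thus borne out by its markers. Most of each sum came from Alb, and single markers could differ more. Apoa1 was at 9816 to 25110 CPM in number 1 and 2472 to 6928 CPM elsewhere. In such bulk RNA, fewer cells of a type and less RNA per cell cannot be told apart.

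Fga encodes the Aα chain, whose cleavage by thrombin starts clotting. It measured 2220.1, 2049.7 and 3409 CPM in Control libraries 1, 2 and 3, then 16248, 2985 and 2994 CPM in ConA, and 22742, 2830.0 and 2241 CPM in MSA_ConA. Only the libraries labelled ConA 1 and MSA_ConA 1 left the range of the other 7. The means ± SD (n = 3) were 2559.8 ± 741 CPM in Control, 7409 ± 7655 CPM in ConA and 9271 ± 11669.6 CPM in MSA_ConA.

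Fgb encodes the Bβ chain. It measured 4533, 2486 and 3114 CPM in Control, 25783, 2882 and 3174 CPM in ConA, and 46832, 3166 and 2567 CPM in MSA_ConA. Here the library labelled Control 1 was also above all 6 libraries numbered 2 and 3. Fgg encodes the γ chain, through which fibrin is crosslinked and platelets bind. It measured 2897, 1984 and 2533 CPM in Control, 16605, 2359 and 2662 CPM in ConA, and 41460.4, 2769.9 and 2189 CPM in MSA_ConA. Its means ± SD (n = 3) were 2471 ± 459.5 CPM in Control, 7209 ± 8139 CPM in ConA and 15473 ± 22507 CPM in MSA_ConA. In the library labelled MSA_ConA 1 the chains together made up 6.34% of all counts, against 3.95% in ConA 1, 0.917% in Control 1 and 0.770% to 1.04% in the others.

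Crp measured 209, 252 and 297 CPM in Control, 2105, 304 and 354 CPM in ConA, and 114, 381 and 293 CPM in MSA_ConA. ConA 1 was the highest library for this gene and MSA_ConA 1 the lowest. The means ± SD (n = 3) were 253 ± 44.1, 921 ± 1026 and 263 ± 136 CPM in Control, ConA and MSA_ConA. Apcs measured 173, 499 and 456 CPM in Control, 755, 519 and 394 CPM in ConA, and 117, 561 and 423 CPM in MSA_ConA. It shared the highest and the lowest library with Crp, and for both genes the library labelled Control 1 was also below the 6 numbered 2 and 3. The pentraxins were thus the members for which the library labelled MSA_ConA 1 lay below Control 1.

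Itih3 and Itih4 encode heavy chains of the inter-alpha-trypsin inhibitor family. Those chains that can be linked to hyaluronan stabilise extracellular matrix, and Itih4 lacks the site for that link. Itih3 measured 1403, 779 and 916 CPM in Control, 6278, 807 and 714 CPM in ConA, and 9221, 835 and 686 CPM in MSA_ConA. Itih4 measured 1266, 1871 and 2354 CPM in Control, 6307, 2082 and 1999 CPM in ConA, and 7405, 2020.3 and 1683 CPM in MSA_ConA. Both were highest in the libraries labelled MSA_ConA 1 and ConA 1. In Control 1 they differed: Itih3 was above and Itih4 below all 6 libraries numbered 2 and 3.

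**Figure D1:**
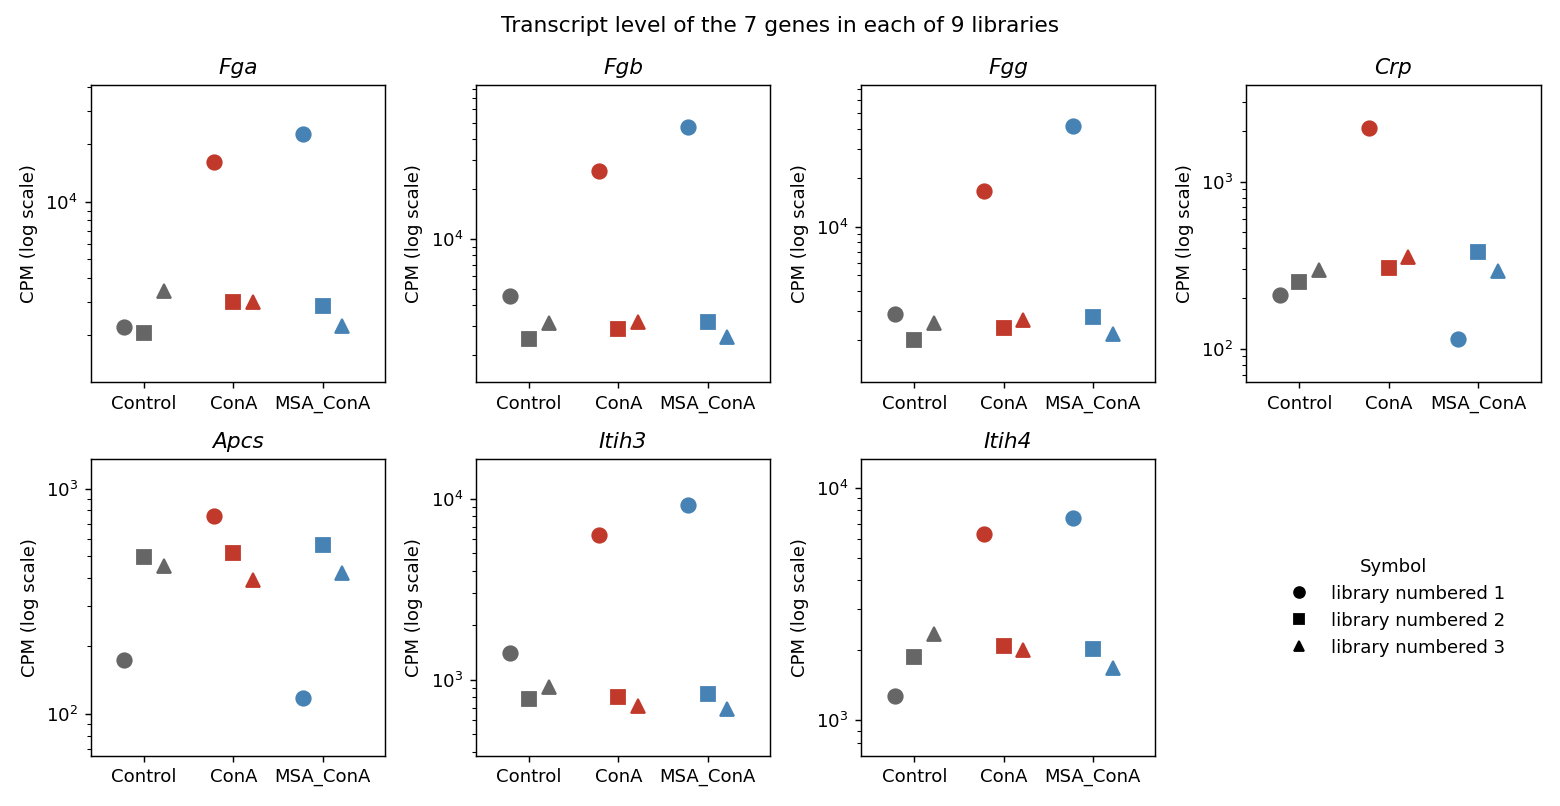
CPM on log axes for each of the 7 genes in the 9 libraries, by group, with a marker for each library number. The libraries labelled ConA 1 and MSA_ConA 1 stand above the rest for the fibrinogen chains, Itih3 and Itih4, while for Crp and Apcs MSA_ConA 1 is the lowest library, at 114 and 117 CPM.

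Per transcript length, Fgg was the most abundant member in every library. In the authors' deposited FPKM values (counts per kb of gene, scaled to a library total) it measured 983 to 1398 in the 6 libraries numbered 2 and 3, where it ranked 21 to 38 among all genes. Fga followed at 669.8 to 1114 FPKM, Fgb at 642 to 833 FPKM, Itih4 at 492 to 698 FPKM and Apcs at 406 to 579.7 FPKM. In this order each gene's range overlapped the next, from Fgg down to Apcs. Itih3 at 183 to 247 FPKM and Crp at 74.9 to 115 FPKM came last and overlapped no other member. Among these 6 libraries the highest was 1.28 times the lowest in CPM for Fgb, the steadiest, and 1.66 times for Fga, the most variable.

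The first question was whether ConA changed these transcripts, and it was tested with edgeR's quasi-likelihood test over all 9 libraries. At an adjusted p under 0.05 the test called no gene of 14603 (0%), hence no member, and 563 genes (3.86%) had an unadjusted p under 0.05. All 7 members had a higher fitted level in ConA, with a median log2 fold change of 1.53 against 0.07 over all genes tested. Crp had the largest fold change, 1.87 (SE 0.79), with an unadjusted p of 0.0426 by edgeR and an adjusted p of 1.00. It was also the member whose 3 ConA libraries all lay above the 3 Control libraries, which held in that direction for 5.66% of genes tested and in the other for 6.64%. The fold changes were 1.53 (SE 1.02) for Fga, 1.65 (SE 1.25) for Fgb and 1.54 (SE 1.20) for Fgg. They were 1.33 (SE 1.16) for Itih3, 0.92 (SE 0.71) for Itih4 and 0.57 (SE 0.62) for Apcs. With DESeq2 2 genes were called, neither of them a member.

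The comparison of MSA_ConA with ConA asked whether MSA given beforehand altered the response. Again edgeR called no gene (0%) and DESeq2 none, with 248 genes (1.70%) at an unadjusted p under 0.05. Members had a median log2 fold change of 0.32 against 0.02 over all genes. Crp was at -1.81 (SE 0.79, unadjusted p = 0.0474 and adjusted p = 1.00 by edgeR) and Apcs at -0.60 (SE 0.62). The other 5 were above 0, from 0.10 (SE 0.70) for Itih4 to 1.10 (SE 1.19) for Fgg. For all 7 members the groups overlapped, whereas 2.33% of genes were higher and 2.54% lower without overlap.

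MSA_ConA was also set against Control, with which the ConA comparison shares its Control libraries. Here edgeR called no gene (0%), and 730 genes (5.00%) had an unadjusted p under 0.05. DESeq2 called 55 genes, none of them a member. The log2 fold changes were 1.86 (SE 1.03) for Fga, 2.38 (SE 1.28) for Fgb and 2.65 (SE 1.25) for Fgg, whose unadjusted p was 0.0631 and adjusted p 0.937 by edgeR. Itih3 was at 1.79 (SE 1.17) and Itih4 at 1.02 (SE 0.71), while Crp at 0.05 (SE 0.76) and Apcs at -0.03 (SE 0.62) were near 0. The median over members was 1.79, against 0.07 over all genes. No member was without overlap here, as 6.44% of genes were upwards and 7.34% downwards. No member was called in any of these comparisons under any of the alternatives tried.

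Within the libraries numbered 2 and 3 alone, the fold changes of the members were small. Over the 3 comparisons they ran from -0.23 for Fga between MSA_ConA and ConA to 0.30 for Crp between MSA_ConA and Control, with standard errors of 0.17 to 0.26 and edgeR adjusted p-values of 0.357 to 1.00. Crp was at 0.26 (SE 0.19) between ConA and Control, Fgb at 0.11 (SE 0.20) and Itih3 at -0.16 (SE 0.17). With 2 libraries a group this fit had 3 residual degrees of freedom, so such a p does not show that the groups are equal. Of 14851 genes tested in it none was called in any of the 3 comparisons. An unadjusted edgeR p under 0.05 was found for 1744 genes in ConA against Control and 783 in MSA_ConA against ConA. For MSA_ConA against Control it was found for 3598 genes. The smallest edgeR adjusted p-values were 0.423, 0.649 and 0.0829 in the same order.

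The difference lay in the libraries numbered 1. Between the libraries labelled ConA 1 and Control 1, Crp was 10.1-fold higher (exact 95% limits for counting error 9.69 to 10.5), Fga 7.32-fold (7.23 to 7.41), Fgg 5.73-fold and Fgb 5.69-fold. Itih4 was 4.98-fold, Itih3 4.47-fold and Apcs 4.36-fold (4.16 to 4.56) higher. All 7 members passed a 4-fold difference upwards, and 6.48% of genes tested did, with 3.59% downwards. Between MSA_ConA 1 and ConA 1, Crp was 18.5-fold lower (17.3 to 19.8) and Apcs 6.43-fold lower (6.00 to 6.90), whereas Fgg was 2.50-fold, Fgb 1.82-fold, Itih3 1.47-fold, Fga 1.40-fold and Itih4 1.17-fold higher. Thus 2 members passed 4-fold downwards, as did 4.49% of genes, and none upwards, as did 1.98%. The pentraxins thus went the opposite way from the fibrinogen chains and Itih3 in this pair. For Itih4 the direction depended on the scaling, as its ratio was 0.996 with library totals. Each of these ratios rests on 1 library a side, the limits leave out the variation between mice, and no test was possible on a pair.

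Between MSA_ConA 1 and Control 1, Fgg was 14.3-fold (14.2 to 14.5), Fgb 10.3-fold and Fga 10.2-fold higher, and Itih3 6.57-fold and Itih4 5.85-fold. Crp was 1.83-fold lower (1.70 to 1.98) and Apcs 1.48-fold lower (1.37 to 1.60). So 5 members passed 4-fold upwards, and 4.92% of genes did, with no member but 4.45% of genes downwards. In the pairs numbered 2 and 3 no member passed 4-fold, and the ratios ran from 0.657 to 1.51. Of all genes, 0.644% and 0.123% were 4-fold apart in these pairs for ConA against Control, 0.336% and 1.52% for MSA_ConA against ConA, and 0.425% and 1.66% for MSA_ConA against Control. Scaling by library totals alone left 4 of 7 members past 4-fold between ConA 1 and Control 1 and 3 between MSA_ConA 1 and Control 1, with ratios of 7.14 for Crp and 4.06 for Fgg in the former. In the latter pair it gave ratios of 8.61 for Fgg, 6.21 for Fgb and 6.16 for Fga, and Crp was then 3.05-fold and Apcs 2.46-fold lower.

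**Figure D2:**
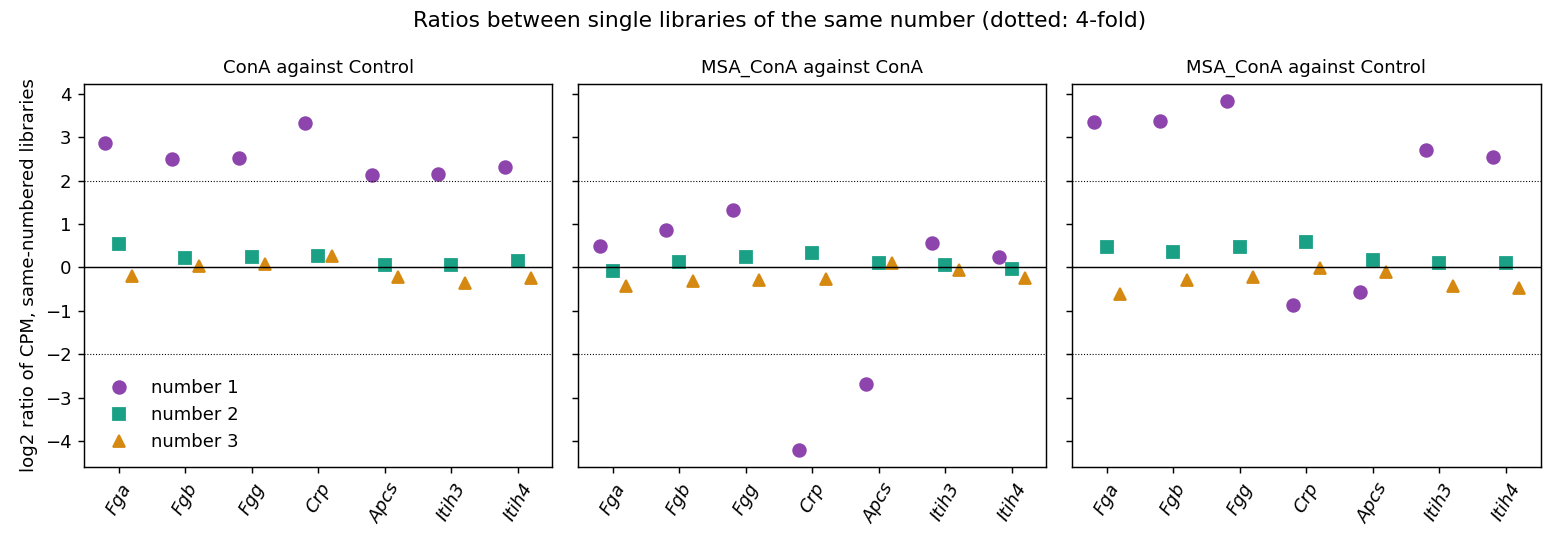
Log2 ratios of CPM between same-numbered libraries for each gene and each comparison, with dotted lines at 4-fold. Only the libraries numbered 1 pass the lines: 7 genes upwards for ConA against Control, Crp and Apcs downwards for MSA_ConA against ConA, and 5 genes upwards for MSA_ConA against Control.

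A model with a mean for each group in each number class tested whether an effect differed between number 1 and numbers 2 and 3. For ConA against Control the effect was larger in number 1 for all 7 members (edgeR adjusted p under 0.05, against 15.6% of genes called in that direction and 15.4% in the other). The difference in log2 fold change was 3.07 (SE 0.34, adjusted p = 0.00125) for Crp and 2.74 (SE 0.48, adjusted p = 0.00632) for Fga. Fgb at 2.40 (SE 0.38), Fgg and Itih4 at 2.37, Itih3 at 2.32 and Apcs at 2.19 (SE 0.36) followed. The differences thus ran from 2.19 to 3.07, and their median was 2.37 against -0.09 over all genes tested. No call among these 7 was lost under another tool, scaling or filter, or without any 1 library numbered 2 or 3. The difference could not be fitted without a library numbered 1 of either group. Library totals in place of TMM shifted the median of all genes to -0.63, and the calls from 2284 higher and 2250 lower to 1325 and 4159. In this model each group has 1 library numbered 1. The 3 residual degrees of freedom come from number 2 against number 3 alone, so the p-values assume that a library numbered 1 varies like those and hold no measure of the spread among mice there. The division by number was also chosen with results of these data known, and these p-values are no independent evidence for it.

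For MSA_ConA against ConA, 2 members had a lower effect in number 1, where 10.1% of genes were called lower. Crp differed by -4.24 (SE 0.35, edgeR adjusted p = 0.000676) and Apcs by -2.79 (SE 0.36, adjusted p = 0.00411), and both calls held under each tool, scaling and filter and without any 1 library numbered 2 or 3. The libraries numbered 1 of the groups compared could not be left out. Fgg differed by 1.34 (SE 0.38, adjusted p = 0.0497), the 1 member called higher, where 8.61% of genes were. That call was lost under limma-voom (adjusted p = 0.0585), relative log expression scaling (0.0549), library totals (0.0525) and TMM without the 20 most abundant genes (0.0586). It was also lost without Control 2 (0.0733), Control 3 (0.0874), ConA 2 (0.117), ConA 3 (0.158) or MSA_ConA 3 (0.0716). Fgb at 0.94 (SE 0.37) had an adjusted p of 0.118 by edgeR and of 0.0267 by DESeq2. Fga at 0.72, Itih3 at 0.55 and Itih4 at 0.37 were not called. Over all genes, library totals gave 762 calls higher and 2044 lower in place of 1257 and 1469, with the median at -0.28 in place of -0.01.

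For MSA_ConA against Control, 5 members had a higher effect in number 1, where 16.0% of genes were called higher. The differences were 3.70 (SE 0.40, edgeR adjusted p = 0.00117) for Fgg, 3.46 (SE 0.48) for Fga, 3.34 (SE 0.38) for Fgb, 2.87 (SE 0.34) for Itih3 and 2.74 (SE 0.34) for Itih4. Crp was called lower, as were 16.6% of genes, at -1.17 (SE 0.33, adjusted p = 0.0329). Without Control 2, Control 3, ConA 2, ConA 3 or MSA_ConA 2 its edgeR adjusted p was 0.0812, 0.0601, 0.0554, 0.0577 and 0.0580. Apcs at -0.61 (SE 0.36, adjusted p = 0.228) was not called, but was at -1.42 with an edgeR adjusted p of 0.0141 when library totals replaced TMM. Library totals moved the median of all genes from -0.12 to -0.93 in this test, and the calls from 2341 higher and 2425 lower to 956 higher and 5226 lower.

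**Figure D3:**
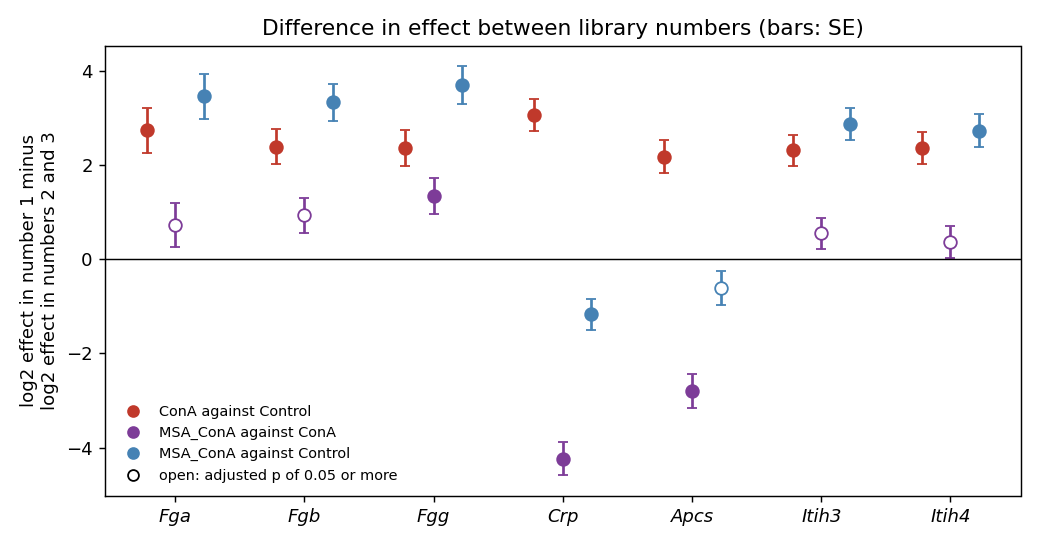
Difference in log2 effect between number 1 and numbers 2 and 3 for each gene and comparison, with bars for the SE and open points where the edgeR adjusted p was 0.05 or more. All 7 points lie above 0 for ConA against Control, from 2.19 to 3.07, while Crp at -4.24 and Apcs at -2.79 lie below 0 for MSA_ConA against ConA.

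With group in the model, number 1 was also compared with numbers 2 and 3 as 1 shift shared by all 3 groups. The shift is an average, since the members' differences varied by group. Fga, for 1, was at 2220.1 CPM in Control 1, between 2049.7 CPM in Control 2 and 3409 CPM in Control 3. The division by number was chosen with results of these data known, and transcripts tied to sex and strain differ between the same classes. Itih3 was higher by 2.66 (SE 0.47, edgeR adjusted p = 0.00402), Fgb by 2.86 (SE 0.54, adjusted p = 0.00522), Fgg by 2.67 (SE 0.59, adjusted p = 0.00936) and Fga by 2.06 (SE 0.57, adjusted p = 0.0220). These 4 of 7 were called higher, where 19.1% of all genes were, and none lower, where 19.2% were. Fgb, Fgg and Itih3 did not overlap between the classes, as was so upwards for 14.8% and downwards for 19.2% of genes, since their lowest library numbered 1, Control 1, was above all 6 others. The Fgg call was lost without ConA 1 (adjusted p = 0.0513). The Fga call was lost without ConA 1, ConA 2, ConA 3, MSA_ConA 1, MSA_ConA 2 or MSA_ConA 3, at edgeR adjusted p-values of 0.0570 to 0.148. Itih4 at 1.16 (adjusted p = 0.0747), Apcs at -0.79 (0.237) and Crp at 0.54 (0.584) were not called. Itih4 had an adjusted p of 0.0203 by DESeq2 and 0.000394 by edgeR without Control 1. For Apcs it was 0.00740 without ConA 1 and 0.0444 with library totals, under which Crp turned to -0.12. That scaling moved the median of all genes from -0.10 to -0.81 and the calls from 2786 higher and 2807 lower to 1082 and 5462.

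The balance within each family also differed by library. Per length, Fgg was 1.98 times Fga in Control 1, 1.55 times in ConA 1 and 2.76 times in MSA_ConA 1, against 1.13 to 1.48 times in numbers 2 and 3. Fgb was 1.61, 1.25 and 1.63 times Fga in the libraries numbered 1, and 0.722 to 0.959 times in the others, so the classes did not overlap for this ratio. Of the summed chains Fga made up 18.5% to 26.3% in number 1 and 29.2% to 35.1% elsewhere. The chains assemble in equal amounts into fibrinogen, and unequal transcript levels say nothing of the assembled protein, which was not measured.

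Itih4 was 0.990, 1.10 and 0.881 times Itih3 per length in the libraries labelled Control 1, ConA 1 and MSA_ConA 1, and 2.63 to 3.07 times in the other 6. Apcs was 2.83, 1.22 and 3.52 times Crp in the same 3 libraries and 3.80 to 6.75 times in the rest. These within-library ratios do not depend on the scaling between libraries. The libraries numbered 1 therefore lay below all others in both ratios, whatever the treatment, and ConA 1 had the lowest Apcs to Crp ratio.

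**Figure D4:**
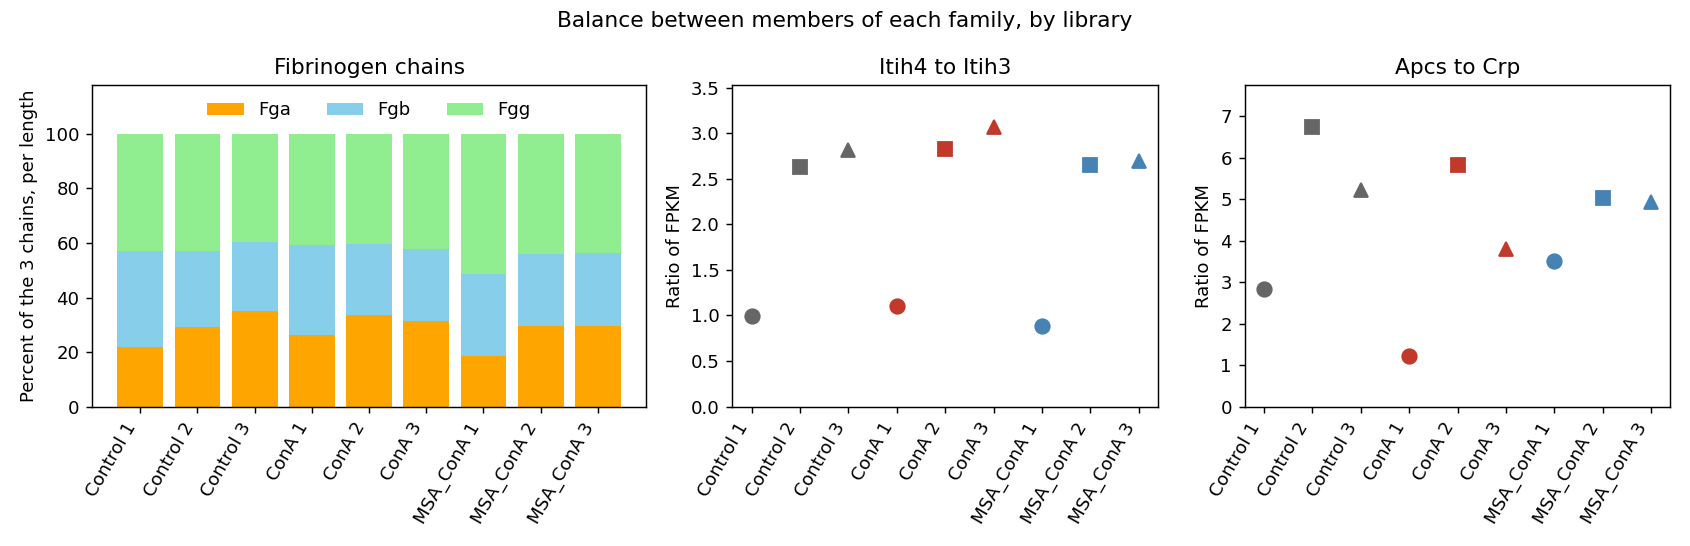
Shares of the 3 fibrinogen chains per length, and the ratios of Apcs to Crp and of Itih4 to Itih3 per length, in each library. In the libraries numbered 1 the Itih4 to Itih3 ratio is 0.881 to 1.10, against 2.63 to 3.07 in the other 6.

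Genes of the interleukin-6 receptor, STAT3 and C/EBP list stood beside the members in these libraries. Of its 10 tested genes, 8 had a larger effect of ConA in number 1 than in numbers 2 and 3 and 1 a smaller one (edgeR adjusted p under 0.05), where 15.6% of all genes were called higher and 15.4% lower. Socs3, the feedback inhibitor induced by STAT3, was at 17.9 CPM in Control 1, 1326 CPM in ConA 1 and 891 CPM in MSA_ConA 1, and 2.99 to 7.53 CPM in the other 6. Stat3 itself was at 75.0, 887 and 703 CPM in number 1 and 82.7 to 99.3 CPM elsewhere. Cebpb, a C/EBP factor of the acute phase, was at 97.7, 1873 and 998 CPM, against 34.7 to 69.3 CPM. For these genes the difference for MSA_ConA against ConA was not called, at -0.13 for Socs3, -0.23 for Stat3 and -0.48 for Cebpb. Il6, which encodes the cytokine, was at 4.75 CPM in ConA 1 and did not pass 0.0515 CPM in the other 8.

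The receptor subunit genes did not share 1 pattern. Il6st, the gp130 gene, was at 7.15, 63.6 and 26.9 CPM in Control 1, ConA 1 and MSA_ConA 1, and Lifr at 539, 209 and 566 CPM. Lifr was the 1 gene of the list called with a smaller ConA effect in number 1, at -1.45. Their differences for MSA_ConA against ConA, -1.02 for Il6st and 1.34 for Lifr, were not called. Il6ra, the interleukin-6 binding subunit, was at 10.3 CPM in Control 1, 53.3 CPM in ConA 1 and 116 CPM in MSA_ConA 1, and its difference for MSA_ConA against ConA was 1.38 (edgeR adjusted p = 0.0415). Osmr, the oncostatin M receptor, was at 3.95, 47.2 and 17.0 CPM, with a difference of -2.36 (edgeR adjusted p = 0.0179). Cebpa, another C/EBP factor, was at 412, 773 and 427 CPM and was not called there. Across the 10 tested genes of the list 1 was thus called higher and 1 lower in this difference. Of all genes 8.61% were called higher and 10.1% lower, so the list was near these shares.

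Of 15 other positive acute-phase genes tested, 14 had a larger ConA effect in number 1 (15.6% of all genes) and none a smaller one, with a median difference of 3.42 against -0.09 over all genes. Haptoglobin (Hp) was at 9218, 41930.1 and 59602 CPM in Control 1, ConA 1 and MSA_ConA 1, and 1050.1 to 1701 CPM elsewhere. Serpina3n was at 302, 7979 and 7951 CPM, against 526 to 671 CPM. Like the fibrinogen chains, both were high in ConA 1 and in MSA_ConA 1. For MSA_ConA against ConA 2 of the 15 were called lower (10.1% of all genes) and none higher (8.61%). Saa3, a serum amyloid A gene, was at 27.3, 6613 and 60.2 CPM in number 1, and its difference of -6.97 (edgeR adjusted p = 0.000348) had the sign of Crp and Apcs. Of 9 negative acute-phase genes tested, none was called in the ConA difference, where 15.6% of all genes were called higher and 15.4% lower. In the MSA_ConA against ConA difference 1, Apoa1, was called higher (1.93, edgeR adjusted p = 0.0310), as were 8.61% of all genes. In the difference for MSA_ConA against Control 5 of the 9 were called higher (16.0% of all genes), namely Rbp4, Serpina6, Apoa1, Ahsg and Fetub. In number 1 against the rest 5 were called higher (19.1% of all genes) and 1, Serpina6, lower (19.2%).

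Relatives of the members were mixed. Itih1 and Itih2, heavy chains of the same family, were at 966 and 916 CPM in Control 1, 1077 and 1458 CPM in ConA 1 and 1108 and 2732 CPM in MSA_ConA 1. Ambp, which encodes their bikunin partner, was at 4956, 8017 and 9459 CPM. It was the 1 of 4 tested genes of its list called in the ConA difference, higher by 1.13 (edgeR adjusted p = 0.0302). Of all genes 15.6% were called higher there and 15.4% lower. In the difference for MSA_ConA against Control Itih2 at 1.56 and Ambp at 1.53 were called higher, as were 16.0% of all genes. Of 8 related clotting genes 2 were called higher in the ConA difference (15.6% of all genes). These were Fgl1, a fibrinogen-like protein, at 1.70 (edgeR adjusted p = 0.0218) and F2, prothrombin, at 1.41 (edgeR adjusted p = 0.0138). No gene of the pentraxin relatives and partners, of which 5 were tested, was called in any difference. The shares of all genes called higher were 15.6% for ConA against Control, 8.61% for MSA_ConA against ConA and 16.0% for MSA_ConA against Control. Those called lower were 15.4%, 10.1% and 16.6%. Of 8 genes for secretory assembly 3 were called higher for MSA_ConA against ConA (8.61% of all genes), which were P4hb at 1.32, Lman1 at 1.47 and Pdia3 at 1.27 (edgeR adjusted p = 0.0312, 0.0319 and 0.0481). In the ConA difference Lman1 and Pdia3 were called lower, at -1.20 and -1.18 (edgeR adjusted p = 0.0410 and 0.0430), as were 15.4% of all genes. Hspa5, a chaperone, was called higher there at 1.50 (edgeR adjusted p = 0.0387), as were 15.6% of all genes. Against Control the MSA_ConA difference was 2.67 for Hspa5 and 1.29 for P4hb, which were called higher, as were 16.0% of all genes. It was 0.27 for Lman1 and 0.09 for Pdia3, and neither of these was called.

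**Figure D5:**
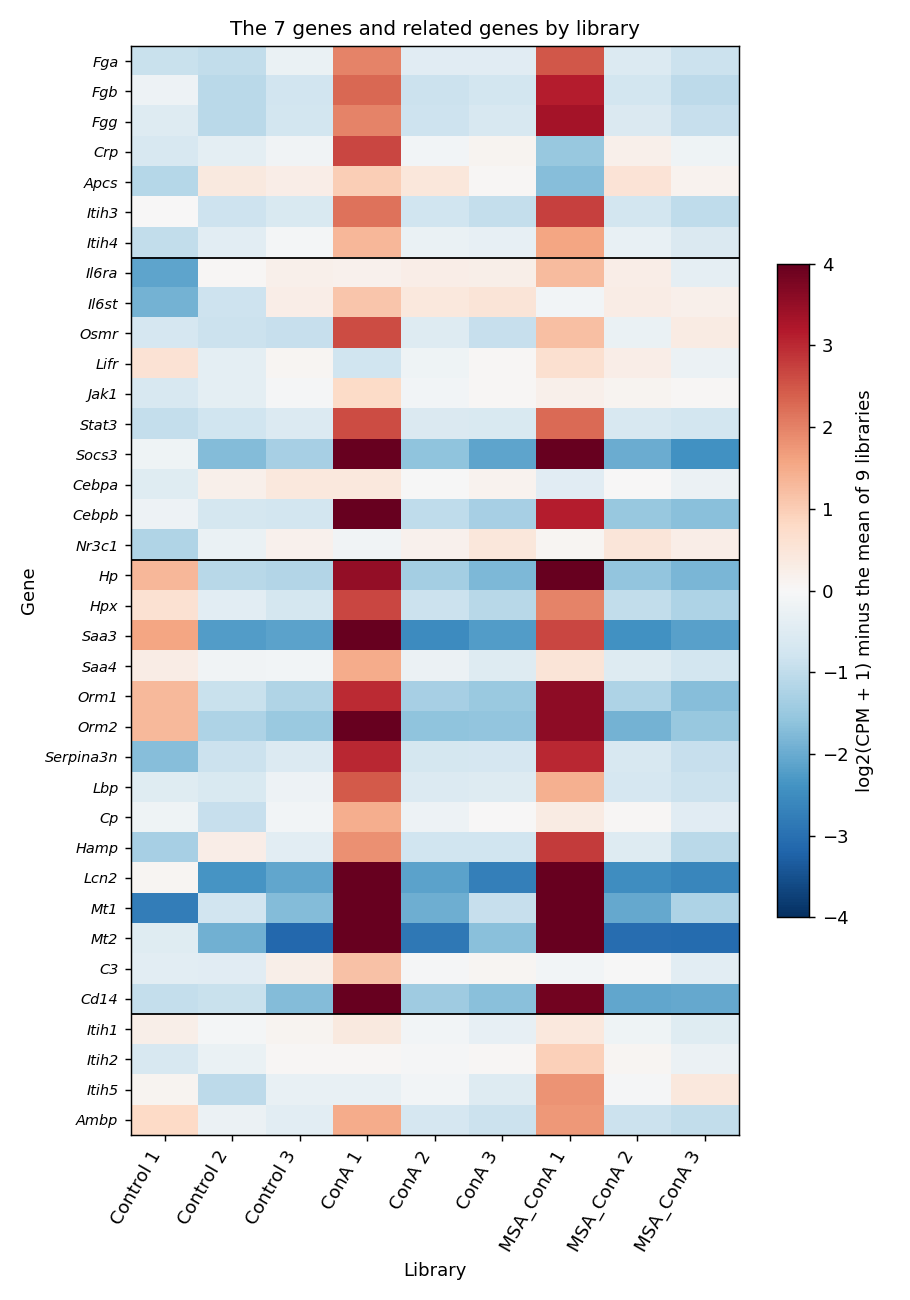
Log2(CPM + 1) of each gene minus its mean over the 9 libraries, in colour from -4 to 4 (values beyond are drawn at the ends), for the 7 members and, below the lines, 3 related lists. Socs3, Cebpb and Hp are high in both ConA 1 and MSA_ConA 1, whereas Crp and Apcs are highest in ConA 1 and lowest in MSA_ConA 1.

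Markers of other cells also differed between these libraries. The 7 neutrophil markers summed to 409.5 CPM in ConA 1, 61.1 CPM in MSA_ConA 1 and 2.72 to 9.46 CPM in the other 7, and most of the sum in ConA 1 and MSA_ConA 1 came from S100a8 and S100a9. The defining gene Ly6g was at 1.94 CPM in ConA 1 and at 0 in MSA_ConA 1. The 6 T and NK cell markers summed to 30.4 CPM in ConA 1, of which Gzmb made 24.8 CPM, and to 1.82 to 3.71 CPM elsewhere. Skeletal muscle markers, 14 in number, reached 5457 CPM in the library labelled MSA_ConA 3 and spanned 1.09 to 421 CPM over the remaining libraries. The 6 adipocyte markers summed to 493 CPM in MSA_ConA 1, with Adipoq, Plin1 and Lep at 0 and Cidec at 442 CPM, and to 7.95 to 144 CPM in the rest. The 5 platelet and megakaryocyte markers, mostly Itga2b, summed to 26.7 CPM in ConA 1 and 36.3 CPM in MSA_ConA 1, and to 3.43 to 8.19 CPM elsewhere, so these were high in the libraries where the fibrinogen chains were. The 5 sinusoidal endothelium markers summed to 102 to 160.3 CPM in number 1, below the 172 to 218 CPM of the others. Single markers were mixed, and 2 of the 5 had a higher fitted level in number 1. In that edgeR test 1 was called higher (19.1% of all genes) and 2 lower (19.2%). The part of these cells in the members' values was not tested.

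The genes whose profile over the 9 libraries was closest to a member were found by the root mean square difference in centred log2 CPM. Tested genes without a symbol of their own were left out of this search and its ranks. Fgb and Fgg were each other's nearest gene of those searched, at 0.17, and Itih3 was next for Fgb at 0.21. Itih3 in turn was closest to Qsox1, at 0.16, then Gde1 and Ctsl, and Itih4 to Nup214, at 0.10, then 2900026A02Rik and Vps37c. For Fga these were Chic2, Dyrk2 and Tnfrsf1b, at 0.19 to 0.21, with Fgg at rank 46 and Fgb at rank 68. Crp was closest to Net1 (0.25), Irgm1 (0.26) and Oas3 (0.28), and Apcs to Rnf217 (0.24), Rassf5 and Fchsd2 (0.25 each). Apcs stood at rank 354 for Crp, at 0.70, still nearer than any other member. With 9 libraries, 3 of which set most of the spread, such likeness describes these libraries only.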

How the data were processed

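Per the labels' protocols, RNA was extracted with Trizol and libraries were made with an Illumina kit from 1 ug of total RNA. The authors deposited raw counts per gene and FPKM values for the same 9 libraries. The submitters' processing notes list mm8, mm10 and the aligner Bowtie 0.12.2 without saying what each was used for. The sources used here do not give the counting tool, its use of strand, or how RNA was selected. Gene identifiers and coordinates are those of the C57BL/6NJ assembly, and promoter sequences are RefSeq's for GRCm38.p6.

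The 7 members and the 8 pathway and 8 cell type lists (136 entries, 133 in the table) were chosen with earlier results of these data known, as was the division by library number. 1 item of these lists and 1 motif are not reported here. Groups follow the titles; columns beginning with M were read as MSA_ConA. Named genes were the members, the most abundant or directly partnered genes of each list, and the 3 nearest genes to each member, and genes outside that rule were named after their values were seen.

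Deposited counts were tested with edgeR 4.0.16 (R 4.3.3), quasi-likelihood, TMM scaling, the default expression filter and a Benjamini-Hochberg adjusted p under 0.05, two-sided, over all 9 libraries (6 residual degrees of freedom). The alternatives tried were limma-voom (limma 3.58.1), DESeq2 1.42.0, other scalings, no filter, subsets and blocks of libraries, limma on log2(FPKM + 1), and each library left out. Single pairs were compared as CPM ratios with exact binomial limits (scipy 1.17.1), and background shares past 4-fold used CPM + 1. The scripts were tested on simulated counts in which only a chosen set of genes differed between libraries, unlike these data.

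Deviations from group means correlated within number 1 at 0.479 to 0.713, within number 2 at 0.349 to 0.553 and within number 3 at 0.303 to 0.472. Each was above 0.1, the bound set for a pairing by number, and the labels give no shared litter or day. Numbers 2 and 3 correlated with each other as much, at 0.313 to 0.681. These values therefore set number 1 apart and do not show pairs within numbers 2 and 3. The main group tests held no term for number.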

Additional observations from a re-analysis of the deposited data

Results flagged for a closer look

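In an edgeR model with 1 library numbered 1 per group, the effect in number 1 was set against that in numbers 2 and 3. The members called are listed. Of all genes tested, 15.6% were called higher and 15.4% lower for ConA against Control. These shares were 8.61% and 10.1% for MSA_ConA against ConA, and 16.0% and 16.6% for MSA_ConA against Control. The spread in this model comes from numbers 2 and 3 alone, and the division by number was chosen with results of these data known. For ConA against Control the log2 effect was larger in number 1 by 2.74 for Fga, 2.40 for Fgb, 2.37 for Fgg, 3.07 for Crp, 2.19 for Apcs, 2.32 for Itih3 and 2.37 for Itih4. For MSA_ConA against ConA it differed by -4.24 for Crp, -2.79 for Apcs and 1.34 for Fgg, whose call (adjusted p = 0.0497 by edgeR) was lost under 9 alternatives. For MSA_ConA against Control it differed by 3.46 for Fga, 3.34 for Fgb, 3.70 for Fgg, 2.87 for Itih3, 2.74 for Itih4 and -1.17 for Crp, whose call was lost in 5 of the fits that left out a library. The 3 comparisons share libraries and are not independent of each other.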

How the results depend on the processing

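In the group comparisons DESeq2 called 2 genes (ConA against Control) and 55 (MSA_ConA against Control) where edgeR called 0. With the replicate block (library number) the count stayed at 0 in all 3 comparisons, and it changed no call of a member. The count for the difference in MSA_ConA against ConA fell from 2726 to 1623 under limma-voom, and ran from 1368 to 2403 with a library left out. The other differences ran from 3068 to 4659 (ConA against Control) and 3646 to 4197 (MSA_ConA against Control), and number 1 against the rest from 4016 to 8145. Library totals cut the members past 4-fold from 7 to 4 and from 5 to 3.

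Using the libraries numbered 2 and 3 alone turned the sign of several fold changes that were never called. For ConA against Control they became -0.067 for Apcs, -0.16 for Itih3 and -0.050 for Itih4. For MSA_ConA against ConA they became -0.23 for Fga, -0.074 for Fgb, -0.013 for Fgg, 0.038 for Crp, 0.12 for Apcs and -0.13 for Itih4. For MSA_ConA against Control they became -0.098 for Fga, 0.049 for Apcs, -0.15 for Itih3 and -0.18 for Itih4. Itih4 for MSA_ConA against ConA was -0.014 under limma-voom, -0.056 with library totals, -0.0075 on log2(FPKM + 1), and its ratio in number 1 became 0.996 with library totals. Crp for MSA_ConA against Control was -0.11 under limma-voom and -0.082 on log2(FPKM + 1), and -0.12 for number 1 with library totals. Apcs for MSA_ConA against Control was 0.00052 with library totals. The cause was not tested.

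With a library left out, the fold changes for MSA_ConA against ConA ran from -1.54 to 1.62 for Fga, -1.88 to 2.52 for Fgb, -1.53 to 2.61 for Fgg, -1.77 to 2.22 for Itih3 and -0.90 to 0.85 for Itih4. Those for ConA against Control ran from -0.16 to 2.08 for Fgb and -0.44 to 1.76 for Itih3. Those for MSA_ConA against Control ran from -0.018 to 2.29 for Fga, -0.24 to 2.86 for Fgb, -0.45 to 2.25 for Itih3, -0.33 to 0.41 for Crp and -0.49 to 0.39 for Apcs, and Crp for number 1 from -0.94 to 1.42. Depth limited no member, as the lowest count was 865.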
